A study of Homo sapiens with 6 samples.

Results

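The genes described here are those of the NRF2 antioxidant programme, of glutathione and thioredoxin chemistry and of the pentose phosphate pathway, together with aldo-keto reductases and ABCC exporters. They were chosen by symbol, with earlier results of these data known, and all 33 were found among the 20332 genes of the table. The RNA came from LX-2, a cell line established from human hepatic stellate cells. In 3 libraries the cells had received TGF-β1 and compound 11 at 10 µM for 48 h, and in the other 3 TGF-β1 and the solvent DMSO. TGF-β1, which turns stellate cells into matrix-producing myofibroblasts, was thus present in every library; its dose is not given in the sources used here, and cells without it were not analysed here. All libraries come from 1 cell line, and nothing in the labels tells whether the replicates were cultured apart. The p-values therefore reflect only the spread among these libraries, and that spread may be technical. The 20 most abundant genes took 13.1% to 13.7% of the total with compound 11 and 11.6% to 11.9% in DMSO.

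NRF2, the product of NFE2L2, is a transcription factor that the adaptor KEAP1 holds in the cytoplasm and delivers for degradation. Oxidants and electrophiles that react with KEAP1 let NRF2 accumulate, pair with a small MAF protein such as MAFG and bind antioxidant response elements in its target genes. Many targets make or recycle glutathione and thioredoxin, supply the NADPH that both systems consume, reduce reactive carbonyls and quinones, or export conjugates from the cell. NRF2 is controlled largely through the stability of its protein, which RNA levels do not measure.

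Compound 11 moved these genes in both directions. The glutamate-cysteine ligase subunits GCLC and GCLM, thioredoxin reductase TXNRD1, sulfiredoxin SRXN1 and the aldo-keto reductases AKR1B1 and AKR1C1 rose, whereas the quinone reductase NQO1, the cystine transporter SLC7A11, the glutathione transferase GSTP1 and the pentose phosphate enzymes PGD, TALDO1 and TKT fell. The pathway as a whole did not move one way, since its enzymes PGLS and RPIA, outside the 33, rose. Of the 31 members tested, 11 rose and 10 fell at an adjusted p of 0.05 in limma with Benjamini-Hochberg adjustment, against a background of 25.3% of all tested genes higher and 24.3% lower. Together 21 members (67.7%) were called, where 49.6% of the 12067 tested genes were. Highly expressed genes were called more often in general: among genes with a mean of at least 50 TPM, 62.9% of 3888 were called, and 13 of 16 such members (81.2%). The median log2 fold change was -0.05 over the tested members and -0.0013 over all tested genes.

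Most of the changes were small. On the log2(TPM + 1) scale, 15 of the 21 called members changed by less than 1.5-fold, and AKR1B1 and AKR1C1, 2 members, changed by at least 2-fold. The median absolute log2 fold change was 0.341 over the tested members and 0.23 over all tested genes. Replicates lay close together, with a median coefficient of variation within a group of 4.22%, and the 3 TPM values of compound 11 and of DMSO did not overlap for any of the 21 called members. The groups overlapped for all 10 members that did not pass. Non-overlap was itself common, found for 57.8% of all tested genes. The 33 genes together made up 0.427% to 0.432% of the total TPM with compound 11 and 0.43% to 0.434% in DMSO. AKR1B10 and ABCC2 did not reach 1 TPM in 3 libraries and were not tested.

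NRF2 and its small MAF partners bind the antioxidant response element, whose core is written TGACNNNGC and, more loosely, TGANNNNGC; every match to the core is also a match to the looser form. RefSeq promoter windows on GRCh38.p14, running from 250 bases before to 50 bases after a transcription start, were given for 25 of the 33 members as 34 windows. No window was given for SLC7A11, GSR, GSS, ABCC1, ABCC3, AKR1B10, PRDX1 and PRDX6. The core form, on either strand, was found in 10 of the 34 windows (29.4%) and in 13.3% of all 35116 windows of the table. Windows of the same gene are not independent, and some overlap. By member, 9 of 25 (36.0%) had a core match. For 29 of the 34 windows the first transcribed bases were found in a GENCODE v29 transcript of the gene. The window with the MGST1 core match was not among them. The looser form was found in 18 (52.9%), against 41.8% of all windows. The GCLM window is shown whole because GCLM had the largest log2 fold change of the members with a core match, a choice made after its value was seen; capitals mark the matches, here on the opposite strand, the first to the core and the second to the looser form.
GCLM, chr1:93909381-93909680, minus strand: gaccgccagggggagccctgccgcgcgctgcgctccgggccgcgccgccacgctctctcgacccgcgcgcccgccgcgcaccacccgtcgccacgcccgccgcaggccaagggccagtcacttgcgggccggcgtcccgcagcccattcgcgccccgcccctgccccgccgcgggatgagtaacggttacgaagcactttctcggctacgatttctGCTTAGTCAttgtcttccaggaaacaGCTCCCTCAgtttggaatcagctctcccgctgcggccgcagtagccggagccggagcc

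The other called members with a core match were TXNRD1, GSTP1 and PGD. Their matches are shown in short windows, in the direction of the gene, with the match in capitals, because these genes moved in different directions.
TXNRD1, upstream start, chr12:104215664-104215704, plus strand: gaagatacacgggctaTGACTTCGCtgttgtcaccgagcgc
TXNRD1, upstream start, chr12:104215755-104215795, plus strand: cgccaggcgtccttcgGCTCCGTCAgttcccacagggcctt
TXNRD1, downstream start, chr12:104286914-104286954, plus strand: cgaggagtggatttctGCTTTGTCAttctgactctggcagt
GSTP1, chr11:67583730-67583770, plus strand: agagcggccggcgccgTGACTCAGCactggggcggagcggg
PGD, chr1:10398847-10398887, plus strand: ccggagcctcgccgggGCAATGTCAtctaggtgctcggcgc

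GCLM and TXNRD1 rose, whereas GSTP1 and PGD fell. Of the 9 members with a core match in a window, 2 rose, 2 fell and 5 did not pass; the 5 were KEAP1, MGST1, CBR1, EPHX1 and PIR. Of the 15 tested members with a window but no core match, 7 rose, 5 fell and 3 did not pass. Over all 12067 tested genes, 25.3% rose and 24.3% fell. The difference between these small groups was not tested. A match describes these letters within 300 bases of a start and is not a measurement of binding. Every window of NFE2L2, KEAP1, GCLC, PGD, NQO1, AKR1C2, AKR1C3, UGDH and OSGIN1 lies wholly inside the gene as annotated in GENCODE v29. So do the downstream TXNRD1 window and some windows of EPHX1 and MGST1. Such windows cover internal starts and do not describe the sequence upstream of the annotated gene.

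**Figure D1:**
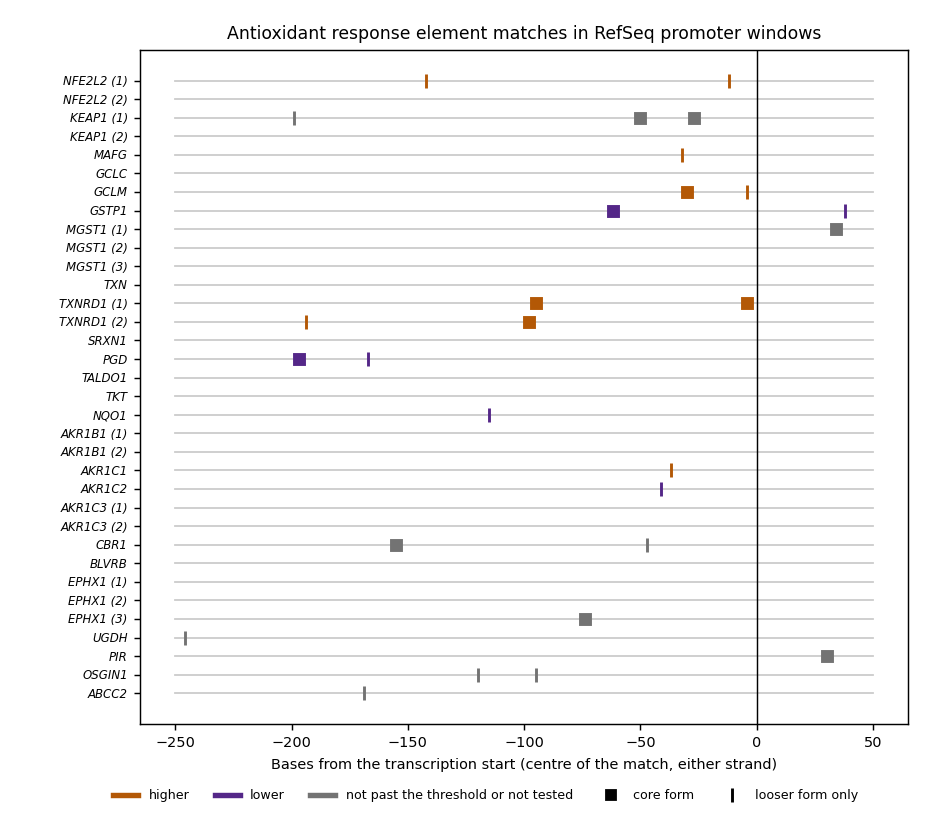
Each line is a RefSeq promoter window of a member (numbered where a gene has more than 1), the x axis gives bases from the transcription start, squares mark core matches and ticks looser ones, coloured by the direction of the gene with compound 11 against DMSO. Core matches lie in 10 of 34 windows, among them GCLM and TXNRD1, which rose, and GSTP1 and PGD, which fell.

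The aldo-keto reductases AKR1C1 and AKR1C2, which reduce steroids and reactive carbonyls, have nearly the same RefSeq promoter window. Both are shown because their listed RNA levels moved in opposite directions. The division of reads between these genes is uncertain, as described below. Capitals mark the looser element on the opposite strand.
AKR1C1, chr10:4963165-4963464, plus strand: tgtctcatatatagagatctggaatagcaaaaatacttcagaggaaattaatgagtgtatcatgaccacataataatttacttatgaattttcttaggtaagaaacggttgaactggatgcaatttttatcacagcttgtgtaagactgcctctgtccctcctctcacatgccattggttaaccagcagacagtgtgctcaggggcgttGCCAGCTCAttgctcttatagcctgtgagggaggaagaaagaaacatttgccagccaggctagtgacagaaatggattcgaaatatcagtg
AKR1C2, chr10:5003808-5004107, minus strand: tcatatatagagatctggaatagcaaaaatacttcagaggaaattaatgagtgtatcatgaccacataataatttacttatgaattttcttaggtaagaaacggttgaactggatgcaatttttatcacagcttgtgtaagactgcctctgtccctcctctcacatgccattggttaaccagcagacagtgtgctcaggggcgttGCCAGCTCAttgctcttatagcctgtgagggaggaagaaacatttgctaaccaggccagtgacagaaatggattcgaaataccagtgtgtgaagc
In a global alignment 288 of 292 aligned bases were identical (98.6%), with 4 internal gap bases.

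Among the regulators, NFE2L2 and MAFG rose and KEAP1 did not pass. NFE2L2 had 89.4, 89.3 and 89.8 TPM with compound 11, against 78.3, 81.3 and 81.2 TPM in DMSO. Every compound 11 library lay above every DMSO library, by a small margin. The change was 1.11-fold (log2 fold change 0.16 ± 0.04 SE, adjusted p = 0.0126), and without DMSO replicate 1 the adjusted p was 0.0521. MAFG, the small MAF protein that pairs with NRF2 on DNA, had 49.8, 46.5 and 45.5 TPM with compound 11, against 27.9, 30.3 and 29.6 TPM in DMSO. The groups were well apart, and MAFG was 1.61-fold higher (log2 fold change 0.67 ± 0.06 SE, adjusted p = 2.1e-05). KEAP1 had 40.6, 42.5 and 46.5 TPM with compound 11, against 41.1, 42.3 and 40.5 TPM in DMSO. These values overlapped, and the 95% interval of its log2 fold change ran from -0.08 to 0.20 (adjusted p = 0.46).

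Of the 50-base windows of the longest coding NFE2L2 transcript in GENCODE v29, 5.06% also occur in AC079305.1 on the opposite strand, and the use of strand in counting is not given in the sources used here. For MAFG the share was 3.85%, with AC145207.8 on the opposite strand and SIRT7 on its own strand. SIRT7 was at 21.0 to 23.8 TPM with compound 11 and 17.5 to 23.1 TPM in DMSO. Exons of AGPS, on the opposite strand, also overlap NFE2L2 exons but share no such window with the longest coding NFE2L2 transcript. AGPS was at 40.6 to 46.8 TPM with compound 11 and 57.7 to 66.7 TPM in DMSO.

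**Figure D2:**
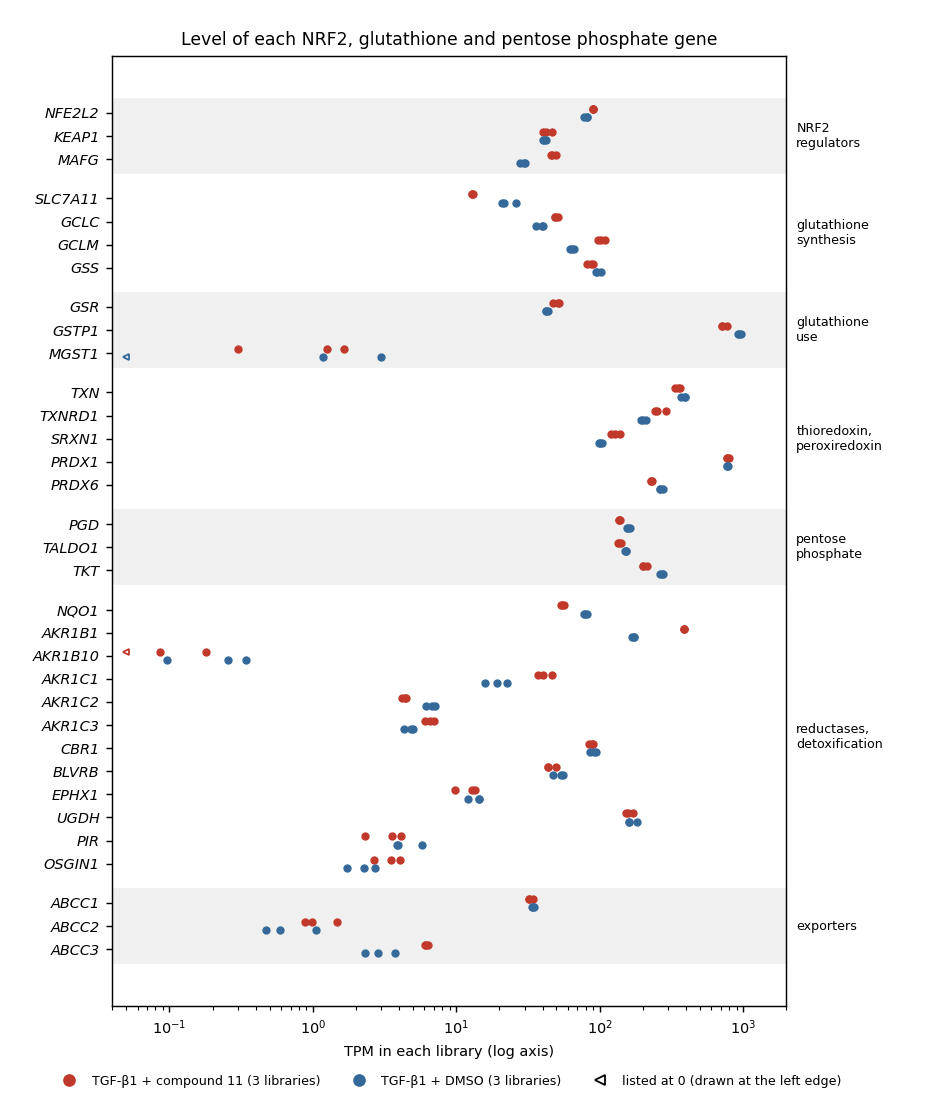
TPM of every member in each of the 6 libraries on a log axis, grouped by role, with the 3 compound 11 libraries drawn above the 3 DMSO libraries of the same gene. AKR1B1, at 386 to 389 TPM with compound 11 and 169 to 175 TPM in DMSO, shows the clearest separation, whereas the values of PRDX1, KEAP1, CBR1 and ABCC1 overlap.

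Glutathione is built from cystine, which SLC7A11 imports as cysteine's oxidised form, by glutamate-cysteine ligase and then glutathione synthetase, GSS. All 4 genes of this route passed, 2 higher and 2 lower, where 49.6% of all tested genes passed. SLC7A11, on chromosome 4 at 138164097 to 138242349 (GRCh38, GENCODE v29), had 12.9, 13.025 and 12.8 TPM with compound 11, against 20.9, 21.6 and 26.2 TPM in DMSO. All compound 11 values lay below all DMSO values, and SLC7A11 was 1.77-fold lower (log2 fold change -0.77 ± 0.09 SE, adjusted p = 0.000125). Its exons overlap the antisense gene SLC7A11-AS1. Of the 50-base windows of the longest coding SLC7A11 transcript, 9.29% also occur in other GENCODE genes, among them SLC7A11-AS1.

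The ligase subunits rose together. GCLC, the catalytic subunit, had 50.9, 48.6 and 49.1 TPM with compound 11, against 35.7, 39.3 and 40.5 TPM in DMSO. It was 1.29-fold higher (log2 fold change 0.36 ± 0.06 SE, adjusted p = 0.00115). GCLM, the modifier subunit that raises the affinity of the enzyme for its substrate, spans 93885205 to 93909456 of chromosome 1. It had 109.6, 98.1 and 102 TPM with compound 11, against 62.2, 63.9 and 66.6 TPM in DMSO, with no overlap. GCLM was 1.6-fold higher (log2 fold change 0.67 ± 0.05 SE, adjusted p = 8.37e-06). The ratio of GCLM to GCLC in TPM was 2.15, 2.02 and 2.07 with compound 11 and 1.74, 1.63 and 1.65 in DMSO, a ratio chosen after its values were seen and not tested.

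GSS, which adds glycine in the last step, had 82.2, 90.2 and 86.5 TPM with compound 11, against 102, 96.1 and 95.1 TPM in DMSO. It was 1.13-fold lower (log2 fold change -0.18 ± 0.05 SE, adjusted p = 0.0172). Its adjusted p rose to 0.0705 at most when 1 library was left out, and the call was lost without compound 11 replicate 1 or DMSO replicate 1.

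Genes that recycle and use glutathione diverged. GSR, the NADPH-dependent reductase that regenerates glutathione, had 51.2, 47.7 and 52.0 TPM with compound 11, against 44.0, 41.9 and 42.1 TPM in DMSO. It was 1.18-fold higher (log2 fold change 0.23 ± 0.06 SE, adjusted p = 0.00763). GSTP1, a cytosolic glutathione transferase and among the most abundant members, had 708, 778 and 714 TPM with compound 11, against 919, 966 and 942 TPM in DMSO. All compound 11 libraries were lower, and the fall was 1.28-fold (log2 fold change -0.36 ± 0.04 SE, adjusted p = 7.62e-05). MGST1, a microsomal transferase, was near the limit of the table, at 0.302, 1.26 and 1.66 TPM with compound 11 and at 3.01 and 1.18 TPM in 2 DMSO libraries, and it was listed at 0 in the other. These values overlap, and the 95% interval of its log2 fold change of TPM + 1 was wide, from -1.09 to 0.98. At so low a level that scale understates changes, so the interval does not bound the fold change of TPM.

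The thioredoxin system uses NADPH to reduce protein disulfides and, through peroxiredoxins, peroxides. TXNRD1, the cytosolic reductase that keeps thioredoxin reduced, had 249.8, 243 and 289 TPM with compound 11, against 200.1, 193 and 211 TPM in DMSO. TXNRD1 was 1.3-fold higher (log2 fold change 0.37 ± 0.06 SE, adjusted p = 0.00116). SRXN1, which repairs over-oxidised peroxiredoxins, had 121, 128 and 138 TPM with compound 11, against 101, 99.4 and 104 TPM in DMSO, and was 1.27-fold higher (log2 fold change 0.34 ± 0.05 SE, adjusted p = 0.000659). Both genes were higher in every compound 11 library. Of the 50-base windows of the longest coding SRXN1 transcript in GENCODE v29, 84.8% also occur in AL121758.1, which overlaps it on the same strand and was listed at 0 in all 6 libraries.

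Thioredoxin, the substrate of TXNRD1, and the peroxiredoxins PRDX1 and PRDX6 did not rise with TXNRD1 and SRXN1. TXN, thioredoxin itself, had 364, 353 and 335 TPM with compound 11, against 371, 395 and 391 TPM in DMSO. The groups were close but did not overlap, and TXN was 1.1-fold lower (log2 fold change -0.14 ± 0.04 SE, adjusted p = 0.0214). That call was lost in 6 of 15 alternatives, among them quantile normalization, under which the log2 fold change was -0.03 (adjusted p = 0.639), and the removal of compound 11 replicate 3, DMSO replicate 2 or DMSO replicate 3 (adjusted p = 0.0615, 0.0752 and 0.0681). PRDX1, a peroxiredoxin and a very abundant member, had 767, 767 and 802 TPM with compound 11, against 782, 773 and 769 TPM in DMSO. These overlapped, and the 95% interval of the log2 fold change was narrow, from -0.06 to 0.08. PRDX6, which uses glutathione rather than thioredoxin, had 230.3, 229.8 and 229.1 TPM with compound 11, against 278, 266 and 263 TPM in DMSO, and was 1.17-fold lower (log2 fold change -0.22 ± 0.04 SE, adjusted p = 0.000613). PRDX1 exons overlap those of MMACHC on the opposite strand, which stood at 4.99 to 5.87 TPM with compound 11 and 7.37 to 8.3 TPM in DMSO.

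Of the pentose phosphate pathway, the members PGD, TALDO1 and TKT fell, while PGLS and RPIA, which are not among the 33, rose. This pathway oxidises glucose 6-phosphate to yield NADPH, and its non-oxidative branch returns the carbon to glycolysis. PGD, the NADPH-yielding 6-phosphogluconate dehydrogenase, had 137, 135 and 139 TPM with compound 11, against 163, 156 and 156 TPM in DMSO, and was 1.16-fold lower (log2 fold change -0.21 ± 0.04 SE, adjusted p = 0.00161). TALDO1, transaldolase, had 134, 135 and 139.8 TPM with compound 11, against 152, 152 and 150.4 TPM in DMSO, and was 1.11-fold lower (log2 fold change -0.15 ± 0.04 SE, adjusted p = 0.00758). TKT, transketolase, changed most of the 3. It had 214, 199 and 199.8 TPM with compound 11, against 271, 277 and 265 TPM in DMSO. TKT was 1.32-fold lower (log2 fold change -0.40 ± 0.04 SE, adjusted p = 3.58e-05). Summed over PGD, TALDO1 and TKT, the level was 478 ± 7.59 TPM with compound 11 and 581 ± 8.43 TPM in DMSO (SD, n = 3 each). PGLS, the lactonase that acts just before PGD, had 75.8, 69.3 and 81.5 TPM with compound 11, against 59.9, 63.2 and 62.2 TPM in DMSO, and was 1.22-fold higher (log2 fold change 0.28 ± 0.06 SE, adjusted p = 0.00471). RPIA, the isomerase that makes ribose 5-phosphate, had 17.4, 16.03 and 16.5 TPM with compound 11, against 10.2, 11.9 and 12.9 TPM in DMSO, and was 1.43-fold higher (log2 fold change 0.48 ± 0.10 SE, adjusted p = 0.00286). RPE, the epimerase of the same branch, averaged 98.7 ± 1.76 TPM with compound 11 and 106 ± 4.25 TPM in DMSO (SD, n = 3 each) and did not pass (adjusted p = 0.0834). PGLS, RPIA and RPE were named after their values were seen.

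**Figure D3:**
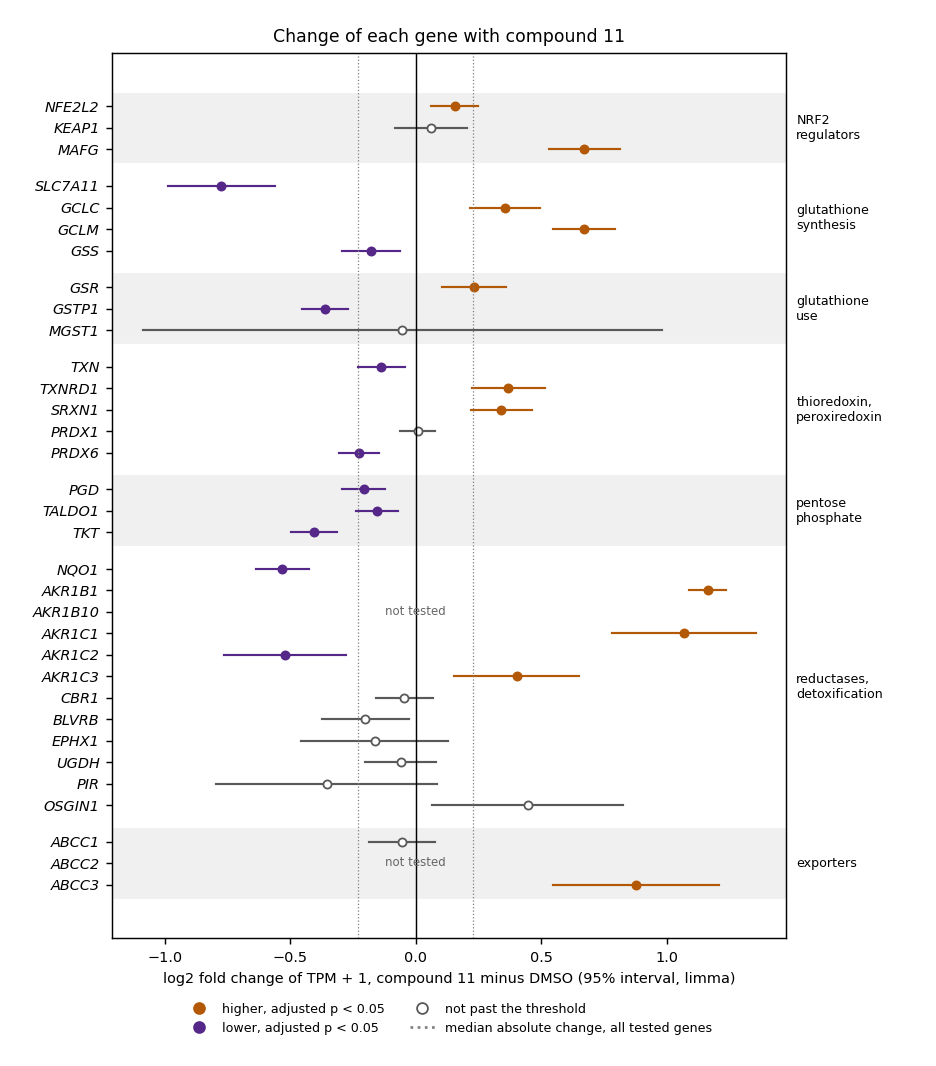
Log2 fold change of TPM + 1 of each tested member, compound 11 minus DMSO, with the 95% interval from limma; filled points passed an adjusted p of 0.05 and dotted lines mark the median absolute change of all tested genes, 0.23. AKR1B1 and AKR1C1 lie farthest to the right, at 1.16 and 1.07, and SLC7A11 farthest to the left, at -0.77.

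NQO1, the quinone reductase that is widely used as a readout of NRF2, fell. The gene occupies 69706996 to 69726951 of chromosome 16. NQO1 had 54.6, 53.9 and 56.0 TPM with compound 11, against 81.9, 78.2 and 79.0 TPM in DMSO. The groups were far apart relative to their spread, and NQO1 was 1.45-fold lower (log2 fold change -0.53 ± 0.05 SE, adjusted p = 1.39e-05). Its direction was thus opposite to that of GCLC, GCLM, TXNRD1 and SRXN1, also established NRF2 targets. Of the 50-base windows of its longest coding transcript, 18.1% occur in another GENCODE gene, mainly AC092115.2 on the opposite strand.

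The aldo-keto reductases held the members that changed most. AKR1B1, aldose reductase, which turns glucose into sorbitol and also reduces lipid aldehydes, lies on chromosome 7 at 134442350 to 134459284. It had 387, 389 and 386 TPM with compound 11, against 175, 174 and 169 TPM in DMSO. AKR1B1 was 2.25-fold higher (log2 fold change 1.16 ± 0.03 SE, adjusted p = 6.95e-09), and the absolute size of its change was at the 96.0th percentile of all tested genes. AKR1B10, the related reductase of the intestine and of some tumours and the next member along the chromosome, at 134527592 to 134541408, was barely detected. It was at 0.086 and 0.18 TPM in 2 compound 11 libraries and listed at 0 in the other, against 0.258, 0.342 and 0.096 TPM in DMSO. The longest coding transcripts of AKR1B1 and AKR1B10 share 0 windows of 50 bases.

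The AKR1C genes lie side by side on chromosome 10, AKR1C1 at 4963253 to 4983283, AKR1C2 at 4987400 to 5018031 and AKR1C3 at 5035354 to 5107686 (GRCh38, GENCODE v29). AKR1C1 had 46.7, 37.1 and 40.6 TPM with compound 11, against 19.4, 15.9 and 22.7 TPM in DMSO, and was 2.14-fold higher (log2 fold change 1.07 ± 0.13 SE, adjusted p = 0.000104). AKR1C2 had 4.39, 4.46 and 4.17 TPM with compound 11, against 6.12, 6.75 and 7.14 TPM in DMSO, and was 1.54-fold lower (log2 fold change -0.52 ± 0.11 SE, adjusted p = 0.00315). These neighbours, whose promoter windows are printed above, thus moved in opposite directions as listed, each without overlap between groups. The printed AKR1C2 window ends at 5004107, so, like windows of other members named above, it covers a start inside the gene as annotated here. AKR1C3, which reduces androgens and prostaglandins, had 6.94, 6.57 and 6.09 TPM with compound 11, against 4.995, 4.81 and 4.30 TPM in DMSO, and was 1.39-fold higher (log2 fold change 0.40 ± 0.11 SE, adjusted p = 0.0133). Its adjusted p was 0.0504 without compound 11 replicate 1.

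The division of reads among these genes is uncertain. Of the 50-base windows of the longest coding AKR1C2 transcript, 50.8% also occur in that of AKR1C1, and 28.3% of those of AKR1C1 occur in AKR1C2. How the authors' counting assigned such reads is not given in the sources used here. Summed over both genes, the level was 51.1, 41.5 and 44.7 TPM with compound 11 and 25.5, 22.7 and 29.9 TPM in DMSO. AKR1C1 took 79.1% ± 1.8 of the summed AKR1C1, AKR1C2 and AKR1C3 TPM with compound 11 and 62.7% ± 4.38 in DMSO (SD, n = 3 each), while AKR1C2 took 8.34% ± 0.863 and 21.8% ± 2.39.

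**Figure D4:**
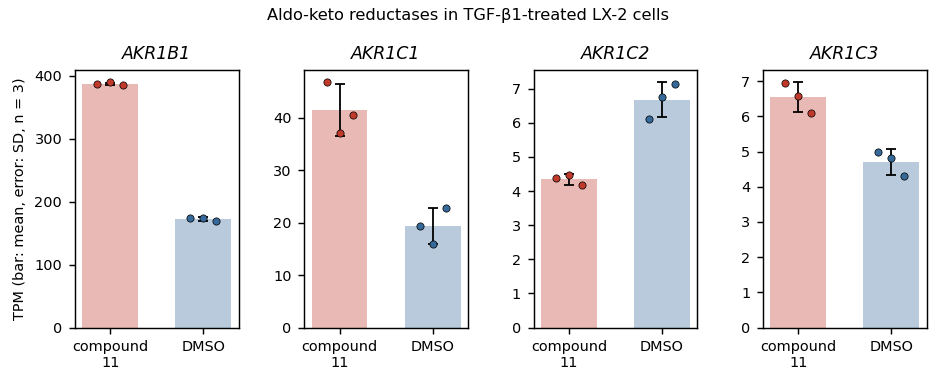
TPM of 4 aldo-keto reductases in each library (points), with the mean (bar) and SD (error bar) of the 3 libraries with compound 11, left, and the 3 with DMSO, right; each panel has its own axis from 0. AKR1B1, AKR1C1 and AKR1C3 were higher with compound 11 and AKR1C2 lower, at a mean of 4.34 TPM against 6.67 TPM.

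The other detoxifying enzymes showed no call. CBR1, a carbonyl reductase, averaged 87.4 ± 2.34 TPM with compound 11 and 90.2 ± 4.37 TPM in DMSO, and UGDH, which makes UDP-glucuronic acid, 160.4 ± 9.93 and 167 ± 12.7 TPM (SD, n = 3 each). The 95% intervals of their log2 fold changes, -0.16 to 0.07 for CBR1 and -0.20 to 0.08 for UGDH, leave room for small differences only. BLVRB, a biliverdin and flavin reductase, had 43.4, 49.3 and 43.7 TPM with compound 11, against 55.8, 53.7 and 47.5 TPM in DMSO, and missed the threshold narrowly (log2 fold change -0.20 ± 0.08 SE, adjusted p = 0.0553). OSGIN1, an oxidative stress-induced growth inhibitor, had 2.69, 4.07 and 3.50 TPM with compound 11, against 1.74, 2.28 and 2.70 TPM in DMSO, and missed it too (log2 fold change 0.45 ± 0.17 SE, adjusted p = 0.053). BLVRB passed in 4 of 15 alternatives and OSGIN1 in 5 of 14. EPHX1, the microsomal epoxide hydrolase, averaged 12.1 ± 2.03 TPM with compound 11 and 13.6 ± 1.36 TPM in DMSO, and PIR, pirin, 3.33 ± 0.91 and 4.51 ± 1.11 TPM.

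Among the exporters, which pump glutathione conjugates and other organic anions out of the cell, ABCC3 rose. It had 6.39, 6.20 and 6.02 TPM with compound 11, against 3.72, 2.30 and 2.86 TPM in DMSO. The compound 11 libraries all lay above the DMSO libraries, and ABCC3 was 2.09-fold higher as a ratio of means (log2 fold change of TPM + 1 0.88 ± 0.15 SE, adjusted p = 0.000856). ABCC1, the more abundant exporter, averaged 32.9 ± 1.17 TPM with compound 11 and 34.1 ± 0.607 TPM in DMSO (SD, n = 3 each), and its 95% interval on the log2 scale ran from -0.18 to 0.08. ABCC2, the exporter of the hepatocyte's canalicular membrane, had 1.48, 0.881 and 0.989 TPM with compound 11 and 0.588, 0.471 and 1.06 TPM in DMSO, which overlap.

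Genes of the same pathways that are not among the 33 were followed through 6 further lists with 109 genes in the table, of which 92 were tested. Of these 28 rose and 28 fell (60.9% called, against 49.6% of all tested genes), with a median log2 fold change of -0.03. The lists held different mixtures, to be read against 25.3% of all tested genes higher and 24.3% lower. Of 12 other regulators of NRF2, 8 rose and 1 fell, with a median log2 fold change of 0.35. MAFF, a small MAF protein, rose 3.62-fold to 71.4 ± 1.47 TPM with compound 11, against 19.7 ± 2.27 TPM in DMSO. SQSTM1, the autophagy receptor p62 that can bind KEAP1, was 3.03-fold higher, NFE2L3, a relative of NRF2, 2.33-fold higher, and BACH1, a repressor that competes at the same elements, 1.78-fold higher (adjusted p = 1.05e-09, 2.24e-06 and 0.000508). The member that fell was GSK3B, a kinase that marks NRF2 for degradation (log2 fold change -0.19, adjusted p = 0.021); it was named after its value was seen.

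Of 18 other tested genes linked to NRF2, 6 rose and 6 fell, with a median log2 fold change of -0.13. HMOX1, heme oxygenase, had 369, 352 and 347 TPM with compound 11, against 142, 144 and 141 TPM in DMSO, and was 2.5-fold higher (adjusted p = 6.95e-09). FTH1, the ferritin heavy chain, was 1.57-fold higher at 9413 ± 333 TPM with compound 11 and 5988 ± 101 TPM in DMSO. SLC3A2, the heavy chain that pairs with SLC7A11, moved opposite to it, at 372 ± 8.35 TPM with compound 11 and 205 ± 10.3 TPM in DMSO (adjusted p = 3.13e-07). SLC3A2 also pairs with other amino acid transporters. CBR3, a second carbonyl reductase, averaged 12.2 ± 1.55 TPM with compound 11 and 22.6 ± 2.53 TPM in DMSO (adjusted p = 0.000234), and ME1, the cytosolic malic enzyme that yields NADPH, 4.44 ± 0.609 and 6.91 ± 0.442 TPM (adjusted p = 0.00465). Both fell.

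Of 17 other glutathione genes 5 rose and 5 fell, with a median log2 fold change of -0.05. GSTO1, an omega-class transferase, rose 2.52-fold to 552 ± 14.1 TPM with compound 11, against 219 ± 10.2 TPM in DMSO, and HAGH, a glyoxalase, rose 1.87-fold. CHAC1, which degrades glutathione, fell to 16.9 ± 1.93 TPM with compound 11, against 42.0 ± 4.31 TPM in DMSO (log2 fold change -1.27 ± 0.10 SE, adjusted p = 8.29e-06). GSTM2, a mu-class transferase, was also lower (log2 fold change -0.57). GPX4, the peroxidase that removes lipid peroxides, was 1.36-fold higher (adjusted p = 6.22e-05).

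Of 21 other thioredoxin and glutaredoxin genes 4 rose and 10 fell, with a median log2 fold change of -0.13. GLRX, glutaredoxin, was 2.01-fold higher and MSRA, a methionine sulfoxide reductase, 2.37-fold higher. TXNRD2, the mitochondrial counterpart of TXNRD1, moved opposite to it and averaged 41.9 ± 2.85 TPM with compound 11 and 80.6 ± 4.25 TPM in DMSO (adjusted p = 2.98e-06). MSRB3, another methionine sulfoxide reductase, and TXNIP, which binds thioredoxin, also fell (log2 fold changes -0.59 and -0.32).

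Of 17 other NADPH supply genes 5 rose and 5 fell, with a median log2 fold change of -0.04. H6PD, which runs the first steps of the pentose phosphate pathway inside the endoplasmic reticulum, was 2.76-fold higher at 84.2 ± 3.11 TPM with compound 11 and 30.5 ± 0.949 TPM in DMSO (adjusted p = 4.28e-08). H6PD thus moved in the direction of the cytosolic enzymes PGLS and RPIA and opposite to PGD, TALDO1 and TKT. SHPK, sedoheptulokinase, was 1.45-fold higher. IDH1, the cytosolic NADP-dependent isocitrate dehydrogenase, and MTHFD2, a mitochondrial folate enzyme, fell (log2 fold changes -0.53 and -0.60). Of 7 other tested reductases and ABC exporters 0 rose and 1 fell, ABCC6, at 0.587 to 1.16 TPM with compound 11 and 1.87 to 3.74 TPM in DMSO.

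**Figure D5:**
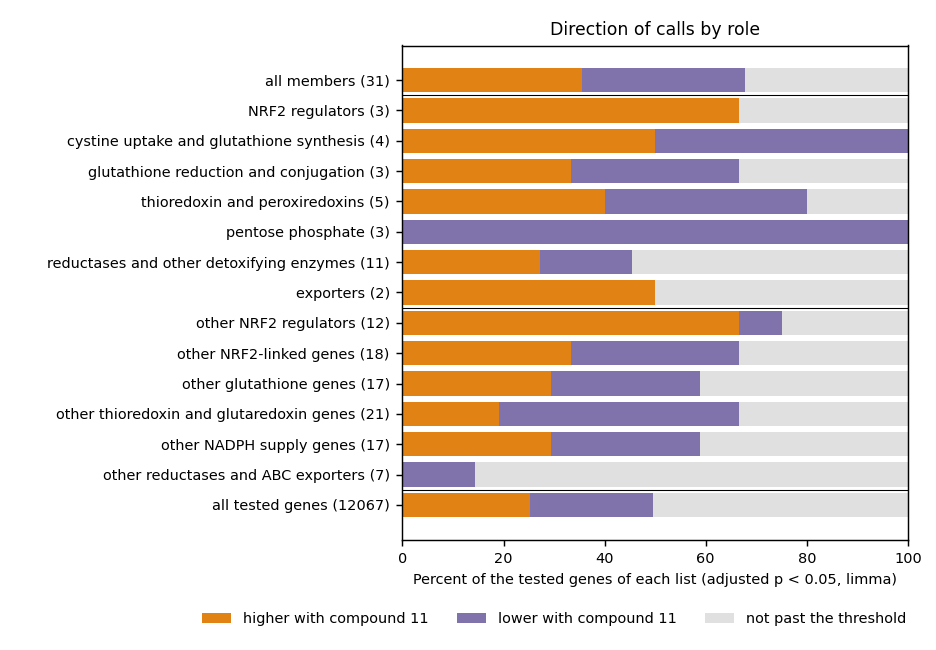
Percent of the tested genes of each list that were higher, lower or not past the threshold with compound 11 against DMSO, with the number tested in brackets; the top bar holds the 31 tested members, the next 7 their roles, then come the lists of other genes and, at the bottom, all tested genes. Calls ran 11 higher and 10 lower over the members, all 3 lower for PGD, TALDO1 and TKT (pentose phosphate), and 8 higher and 1 lower for the other NRF2 regulators.

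The label of the cells was checked against marker genes. Of 12 stellate or myofibroblast markers 10 reached 1 TPM, with a summed level of 12460 to 13016 TPM with compound 11 and 9419 to 9730 TPM in DMSO. VIM was the largest part of the sum in both groups, at a mean of 7512 TPM with compound 11 and 6400 TPM in DMSO. TIMP1 was 6.59-fold higher, at 4980 TPM with compound 11 and 756 TPM in DMSO. The activation genes ACTA2 and COL1A1 were far lower with compound 11. ACTA2 was at 5.8 to 6.58 TPM with compound 11 and 172 to 181 TPM in DMSO. COL1A1 was at 94.3 to 108 TPM with compound 11 and 1099.9 to 1162 TPM in DMSO. COL1A2, COL3A1, PDGFRB, TAGLN and LOX were also lower with compound 11. DES was at 0 throughout and LRAT, the retinol-storing enzyme of quiescent stellate cells, did not exceed 0.028 TPM. The summed level of 8 hepatocyte markers was 19.1 to 27.5 TPM with compound 11 and 3.67 to 4.6 TPM in DMSO. SERPINA1 supplied most of it, at 18.7 to 27.1 TPM with compound 11 and 3.32 to 4.08 TPM in DMSO; APOA1, APOB, TTR and HNF4A were at 0, and ALB did not exceed 0.105 TPM. Of 8 macrophage markers 2 reached 1 TPM, with sums of 6.26 to 6.69 TPM with compound 11 and 4.73 to 5.31 TPM in DMSO, and C1QB was at 0. Of 7 endothelial markers 2 did, with sums of 17.6 to 18.7 and 7.98 to 8.58 TPM, mostly TIE1, and LYVE1 and CLEC4G were at 0. Of 5 cholangiocyte markers 3 did, with sums of 38.3 to 38.9 TPM with compound 11 and 26.1 to 31.7 TPM in DMSO, mostly SOX9, and CFTR was at 0. The part of these marker shifts in the results above was not tested, and in bulk RNA fewer cells of a type and less RNA per cell cannot be told apart.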

How the data were processed

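Total RNA of LX-2 cells was made into libraries with an Illumina TruSeq kit, per the labels' protocols. Per the submitters' processing notes, Bowtie 0.12.2 was among the tools; GRCh38.p12 and mm8 are listed as builds, with no role stated. No counter, annotation, strand setting or filter was given in the sources used here. Values are called FPKM per the file headers, yet every deposited column adds up to 1000000, which is the TPM scale, and they are treated as TPM. TPM keeps no depth, so counting error is unknown, and values are relative within a library. The planned test assumed FPKM and was kept.

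Genes reaching 1 TPM in 3 or more of the 6 libraries, 12067 in all, were tested on log2(TPM + 1) with limma 3.58.1 (R 4.3.3; variances following a mean trend, two-sided, Benjamini-Hochberg over all tested genes, threshold 0.05). This scale understates changes of low genes; folds without log2 are ratios of mean TPM, and SEs are limma's. The 3 against 3 design has 4 residual degrees of freedom per gene. The pipeline was tested on simulated data. Coordinates and transcripts are from GENCODE v29; protein sequences were not used here. Members and lists were chosen with earlier results of these data known. All members are named; of each further list, up to 4 called genes with the largest absolute change and 8 fixed genes. Alternatives were other pseudocounts, filters, scalings and variance models, the replicate block and each library left out.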

Additional observations from a re-analysis of the deposited data

How the results depend on the processing

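Of the 21 called members, 17 kept call and direction in every one of the 15 alternatives that tested them; NFE2L2, GSS, TXN and AKR1C3 lost the call in at least 1, and 0 reversed. Genes called over the whole table numbered 5204 to 6226, against 5984, and no scaling moved the median log2 fold change of all genes by more than 0.0256. Signs turned only for members that were not called: MGST1 was at 0.42 with a pseudocount of 0.1, 1.40 with 0.01 and -0.57 to 0.43 with single libraries left out (0.25 without compound 11 replicate 1, 0.43 without DMSO replicate 2); PRDX1 was at -0.0048 after upper quartile rescaling and -0.0137 to 0.0186 with single libraries left out (negative without compound 11 replicate 3); UGDH was at -0.108 to 0.0021 with single libraries left out (positive without DMSO replicate 3). The 1 other NRF2 regulator that fell, GSK3B, lost its call without a variance trend (0 called) and without compound 11 replicate 2 or DMSO replicate 3 (0 to 1 called). With single libraries left out, 3 to 5 other glutathione genes rose. With a mean filter of 5 TPM, 0 of the other reductases and exporters fell, because ABCC6 was not tested. Same-numbered libraries deviated together only weakly (correlations 0.0794, 0.149 and 0.0664), though each correlated best with its own number; with the replicate block 6226 genes were called and BLVRB and OSGIN1 passed (log2 fold changes -0.20 and 0.45). The cause of these shifts was not tested. Depth is unknown, so precision for low genes such as MGST1, PIR and ABCC2 cannot be given.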
